A study of Mus musculus with 10 samples.

Results

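B4galnt2 is 1 of 22180 mouse genes that could be followed in gastrocnemius muscle of NMRI mice with and without dietary L-carnitine. It was chosen by the size of its difference between the diets in these same log2 values, so that difference is given as a description and carries no test. Of the probe sets of the array, 1 names B4galnt2 alone, and that probe set (17268243) supplies every value. The series concerns carnitine status, liver lipid metabolism and muscle gene expression in ageing mice given L-carnitine, the carrier by which fatty acids enter mitochondria, for most of their lives.

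The mice were males of the outbred NMRI stock, with no engineered allele stated. They entered the study at 3 weeks of age, were kept 5 to a cage, and 60 animals were split at random into diets of 30. Control mice ate a natural-ingredient diet with under 5 mg carnitine per kg. Carnitine mice ate the same diet with 1000 mg L-carnitine per kg added. The study killed 10 mice per diet at each of 9, 15 and 18 months, and the labels do not give the age of the mice on the arrays. RNA of 5 randomly picked mice per diet was hybridised to 1 Affymetrix Mouse Gene 2.0 ST array each. Mice of an outbred stock are not genetically alike, and no genotypes were used here.

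The enzyme encoded by B4galnt2 adds N-acetylgalactosamine to a galactose that already carries sialic acid, which completes the Sda glycan, also called the CT carbohydrate. In mouse muscle this glycan is normally restricted to the neuromuscular junction, the synapse between motor nerve and fibre. Overexpression of the gene in mouse muscle (under its older name Galgt2) spreads the glycan along the fibre, glycosylates alpha-dystroglycan and raises utrophin and synaptic laminins. Outside muscle the gene is best known from intestinal epithelium. In some mouse strains a regulatory allele moves its expression to the vascular endothelium, where the enzyme modifies von Willebrand factor and shortens its life in plasma. These facts are background and were not measured here.

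The stretch before the gene's start is shown because it is the regulatory sequence nearest to the transcript whose level differed. It covers the 250 bases upstream of the RefSeq start, at chr11:95914872-95915121 of GRCm38.p6, on the minus strand and read 5′ to 3′, with a GC box in capitals.
B4galnt2 upstream: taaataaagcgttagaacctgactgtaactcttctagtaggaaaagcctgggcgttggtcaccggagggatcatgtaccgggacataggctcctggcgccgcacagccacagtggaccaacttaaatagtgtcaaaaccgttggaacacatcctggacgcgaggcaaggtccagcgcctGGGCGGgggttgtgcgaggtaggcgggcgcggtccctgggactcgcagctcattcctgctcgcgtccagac

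Both strands were searched for 4 motifs. The GC box (GGGCGG), a letter pattern that Sp-family factors can bind, occurred 1 time, at position -71 counted from the start, and 32.7% of 32851 RefSeq upstream windows of this length hold it. The E-box (CANNTG), a pattern of myogenic factors that 66.2% of the windows hold, was not among these letters. Neither was the N-box (CCGGAA), a pattern known from synaptic genes of muscle and held by 12% of the windows, nor the TATA box (TATAAA), held by 12.4%. The stretch had 58.4% G and C, against a median of 52.4% over the windows. A match is a match of letters only, and with 1 match no motifs overlap.

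B4galnt2 was higher in the carnitine mice, and mice within each diet varied widely. On the RMA log2 scale of the deposited values, the control mice with replicate numbers 1 to 5 had levels of 5.18, 6.97, 5.38, 5.47 and 5.90. The carnitine mice 1 to 5 had levels of 7.26, 7.35, 8.07, 7.43 and 6.98. Of the controls, 4 formed a low cluster and control 2 stood alone, next to the lowest carnitine mouse. Carnitine 3 was the brightest of the 10.

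The control mean was 5.78 ± 0.72 and the carnitine mean 7.42 ± 0.40 (SD, n = 5 each), a difference of 1.64 on the log2 scale, or 3.11-fold. None of the 22180 genes differed by more, though slow myosin Myh7 came close with -1.64, and 10 genes (0.0451%) differed by at least 1 on that scale. The groups did not overlap, but by 0.01 only, from control 2 at 6.97 to carnitine 5 at 6.98. The deposited values carry no finer step. After median centring of the arrays both mice stood at 7.00, so the separation of all 5 carnitine mice from every control was a tie there. Groups lay apart in 1.11% of all genes, with all carnitine mice above in 112 genes (0.505%) and all below in 135 genes (0.609%).

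**Figure D1:**
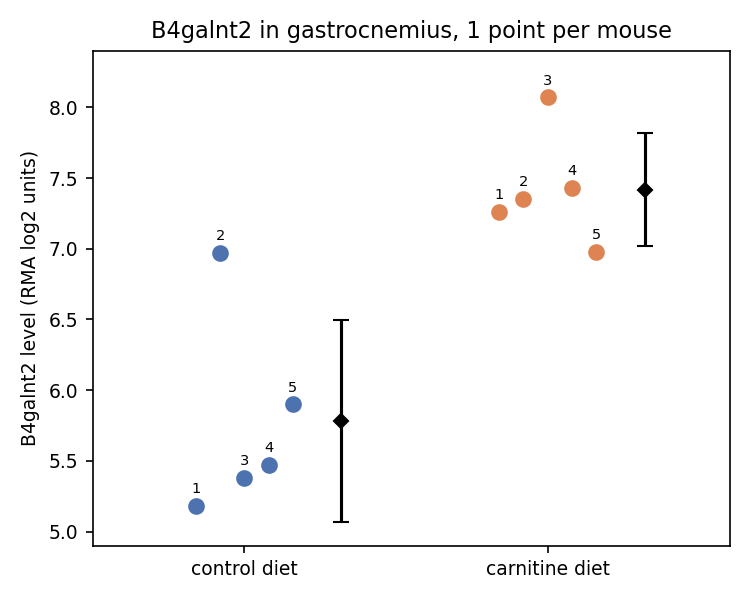
B4galnt2 level of each mouse (points, labelled with the replicate number) on the RMA log2 scale, with the mean ± SD of 5 mice per diet as a diamond and bar. Control 2 at 6.97 lies beside carnitine 5 at 6.98, and the other 4 controls lie between 5.18 and 5.90.

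The spread within a diet was itself large. Control levels covered 1.79 log2 units, or 3.46-fold, and carnitine levels 1.09 units, or 2.13-fold. The pooled SD within diets was 0.58, against a median of 0.18 over all genes, and 0.455% of genes had a larger one. Control 2 alone made up 52.6% of the summed squared deviations from the diet means. The 4 controls besides it averaged 5.48 ± 0.30 (SD, n = 4). The controls other than 2 were dim: between 36.5% and 48.3% of the probe sets on their arrays gave a lower signal. In control 2 and the carnitine mice that share was 73.2% to 86.6%. RMA draws dim signals together, so a fold measured from the low controls is uncertain.

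The difference kept its direction under the scalings tried. Omission of mice could not reverse it, since every carnitine mouse lay above every control in the deposited values. Leaving out 1 mouse gave 1.48 without carnitine 3 to 1.94 without control 2, and leaving out controls 2 and 5 together gave 2.07. Control 2 and carnitine 3 were the highest of their diets. The gap between the lowest carnitine and the highest control mouse went from 0.01 to 1.08 without control 2 and to 0.29 without carnitine 5. The distance between the groups therefore rested on 1 mouse per diet. The difference of means moved by less than the pooled SD for each omission. For 1 mouse this had to be so, as its omission shifts a mean only by a part of its own deviation.

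**Figure D2:**
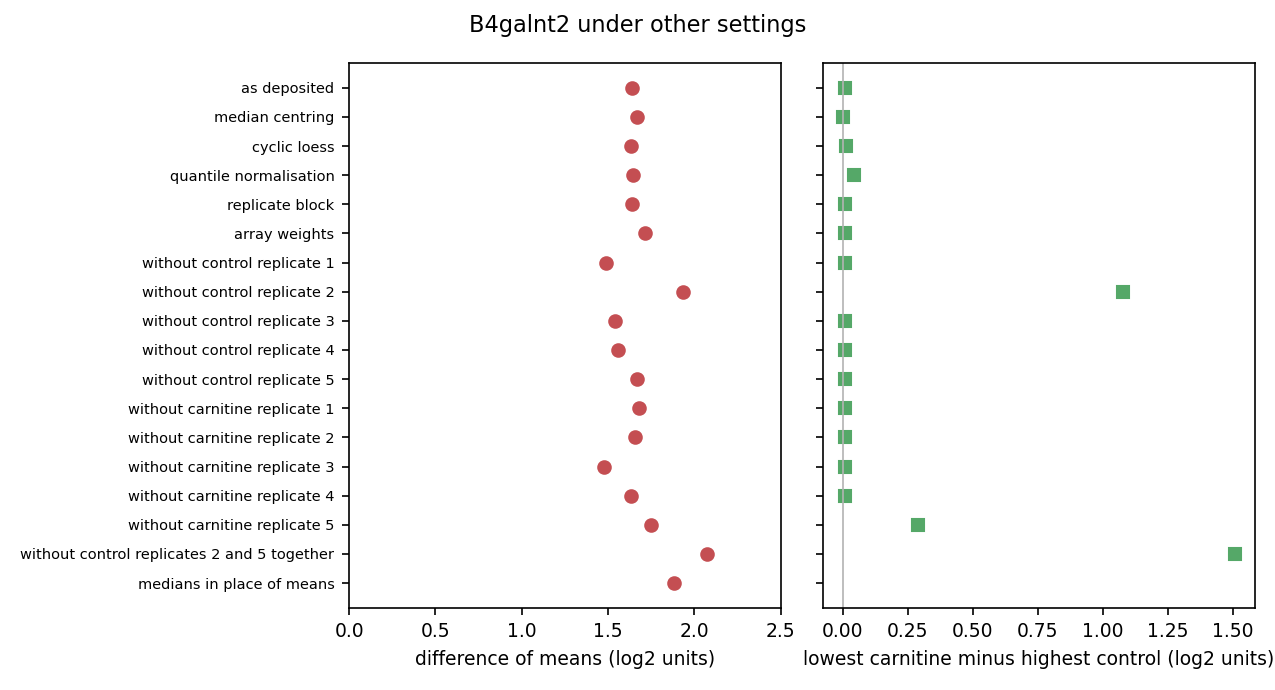
Difference of the B4galnt2 means (left) and gap from the highest control to the lowest carnitine mouse (right), both in log2 units, for the deposited values and each alternative. The left values lie between 1.48 and 2.07 and the right values stay near 0 unless control 2 or carnitine 5 is left out; a setting with medians has no gap of its own.

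The arrays gave no call across all genes. limma with Benjamini-Hochberg adjustment called 0 of 22180 genes (0%) at an adjusted p of 0.05. At an unadjusted p under 0.05 it gave 696 genes higher (3.14%) and 850 lower in carnitine (3.83%), 6.97% in either direction. Without control 2 these counts were 1280 and 1280, without control 3 they were 945 and 947, and without carnitine 2 the higher genes were 445. Leaving out dim genes left 12929 genes, of which 599 were higher and 246 lower. Correlations between arrays ran from 0.973 to 0.994 across genes, and control 5 had the narrowest distribution, with an interquartile range of 2.20 against 2.39 to 2.59. Muscle identity was plain on each array, with skeletal alpha-actin Acta1 between 13.72 and 13.88, muscle creatine kinase Ckm between 13.22 and 13.41 and fast myosin Myh4 between 13.50 and 13.76. The replicates are separate mice, so the spread includes that between animals.

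The other N-acetylgalactosaminyltransferases of the family overlapped between the diets and differed by less than their SE. B4galnt1, which makes complex gangliosides, averaged 5.65 ± 0.24 in control and 5.55 ± 0.15 in carnitine mice (SD, n = 5 each). B4galnt3, which modifies N-acetylglucosamine ends of glycans, averaged 6.19 ± 0.19 and 6.23 ± 0.07. B4galnt4, its close relative, averaged 5.57 ± 0.23 and 5.61 ± 0.16. These 3 genes differed by -0.10, 0.04 and 0.04 (SE 0.12, 0.10 and 0.12), none with an unadjusted p under 0.05, and B4galnt1 and B4galnt4 lay on average below the median probe set (5.80). In each of them the highest mouse was control 5, not control 2. After subtraction of each diet mean, Pearson's r with B4galnt2 over the 10 mice was -0.029, 0.121 and 0.075. Without control 2 and carnitine 3, the mice farthest from their median in B4galnt2, it was 0.588, 0.889 and 0.942, so over the other 8 mice B4galnt3 and B4galnt4 did vary with it. Control 5, the second highest control in B4galnt2, is also the array with the narrowest distribution, whose part in this was not tested.

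Beside 6.97% of all genes, no member passed the unadjusted threshold among 19 measured genes that supply the sialylated acceptor and the sugar donors. Their differences ran from -0.33 to 0.28 with a median of 0.09, against -0.01 over all genes. St3gal5, the sialyltransferase that makes the ganglioside GM3, had 9.63 ± 0.48 in control and 9.30 ± 0.35 in carnitine mice. St3gal6, which sialylates galactose ends, had 9.77 ± 0.18 and 9.96 ± 0.22. Uap1, which makes UDP-N-acetylhexosamines, differed by 0.17 (SE 0.10) and the UDP-sugar transporter Slc35d1 also by 0.17 (SE 0.11). Of 18 genes of glycan initiation and branching, most but not all of them for O-GalNAc glycans, again 0 had an unadjusted p under 0.05. The median was -0.005. The smallest p there belonged to the branching enzymes Gcnt2 (0.30, SE 0.16) and Gcnt1 (0.12, SE 0.09) and the initiating enzymes Galnt5 (-0.21, SE 0.16) and Galnt2 (0.13, SE 0.10).

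The enzymes that build the O-mannosyl glycan of alpha-dystroglycan had 3 of 15 measured members with an unadjusted p under 0.05 on the higher side and 1 on the lower, beside the 3.14% and 3.83% of all genes, and 0 by adjusted p. On the higher side stood Dpm1, a subunit of dolichol-phosphate-mannose synthase. Its levels were 8.77, 8.77, 8.90, 8.76 and 8.62 in controls 1 to 5 and 8.95, 9.00, 8.92, 8.91 and 9.00 in carnitine 1 to 5, so the groups lay apart by 0.01, as in B4galnt2. The difference was 0.19 (SE 0.08, limma adjusted p = 0.71). Dolk, which makes dolichol phosphate, and B3galnt2, which adds N-acetylgalactosamine in the O-mannosyl core, differed by 0.20 (SE 0.09) and 0.21 (SE 0.09). Large2, which extends the laminin-binding end of the glycan, lay at 5.97 ± 0.26 and 5.62 ± 0.15, a difference of -0.35 (SE 0.13). After cyclic loess or quantile normalisation the list had 0 such genes on the higher side, and leaving out 1 mouse gave from 1, for instance without control 1, to 5 without control 3. The list's median correlation with it within diets was 0.038.

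Dystroglycan and utrophin, through which the glycan is known to act, differed by less than the spread between mice. Dag1, which encodes dystroglycan itself, averaged 10.28 ± 0.23 and 10.30 ± 0.07, and utrophin Utrn 8.14 ± 0.29 and 8.21 ± 0.10 (SD, n = 5 each). Both are named for their role, outside the selection by p. The 22 measured genes of the dystrophin complex and its laminin link had a median difference of 0.08. Of them, 1 had an unadjusted p under 0.05 on the higher side and 0 on the lower, beside 3.14% and 3.83% of all genes. The gene on the higher side was laminin alpha-4 (Lama4), a laminin chain of vessels and synapses. It lay at 7.63 ± 0.22 and 7.95 ± 0.21, a difference of 0.31 (SE 0.12, limma adjusted p = 0.71). Leaving out 1 mouse gave from 0 such genes, without control 5 or carnitine 1 or 2, to 3, without control 3. The dystrobrevin Dtnb (0.19, SE 0.10), laminin beta-1 (Lamb1, 0.19, SE 0.11) and epsilon-sarcoglycan (Sgce, 0.19, SE 0.12) followed.

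Of 21 measured neuromuscular junction genes, 0 had an unadjusted p under 0.05, beside 6.97% of all genes in either direction. The median difference of the list was 0.04. The largest difference was in Rapsn, which clusters acetylcholine receptors. Its levels were 7.67, 7.55, 7.71, 7.30 and 7.24 in controls 1 to 5 and 7.71, 7.69, 7.84, 7.77 and 7.55 in carnitine 1 to 5, so the groups overlapped. Without control 3 the list had 2 genes on the higher side, beside 945 of all 22180 genes, and without control 1 or carnitine 5 it had 1. The receptor subunit Chrne, specific to the adult junction, differed by 0.19 (SE 0.13). The other receptor subunits Chrna1, Chrnb1 and Chrnd differed by 0.07, 0.08 and -0.01, and the kinase Musk, which organises the junction, by 0.09 (SE 0.16). Agrn, whose neural form triggers that organisation, differed by -0.05 and acetylcholinesterase Ache by 0.07.

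Junction genes also varied with B4galnt2 only in part from mouse to mouse. The deviations of each mouse from its diet mean gave a correlation with B4galnt2 of 0.577 for the guidance receptor Epha4, the highest of the list, and of -0.495 for Col13a1, a collagen of the junction, the lowest. Without control 2 and carnitine 3 these values were -0.118 and 0.236. Other members became stronger without these mice: Erbb2 went from -0.209 to 0.893 and Ank3 from -0.281 to -0.712. The list's mean level had r = 0.355 with B4galnt2, and 0.202 without these mice. The fetal receptor subunit Chrng, a gene that denervated muscle switches on, was lower on average, at 6.12 ± 0.33 in control and 5.70 ± 0.30 in carnitine mice (difference -0.42, SE 0.17, limma adjusted p = 0.71). It was the 1 member with an unadjusted p under 0.05 among 15 genes of the denervation response, beside 3.83% of all genes on the lower side. Leaving out 1 mouse gave from 0 such genes, without controls 4 or 5 or carnitine 1 or 5, to 2, without control 1. Runx1, another of them, differed by 0.13 (SE 0.09). Within diets r with B4galnt2 was 0.258 for Chrng and 0.534 for Runx1, and 0.949 and -0.007 without control 2 and carnitine 3.

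**Figure D3:**
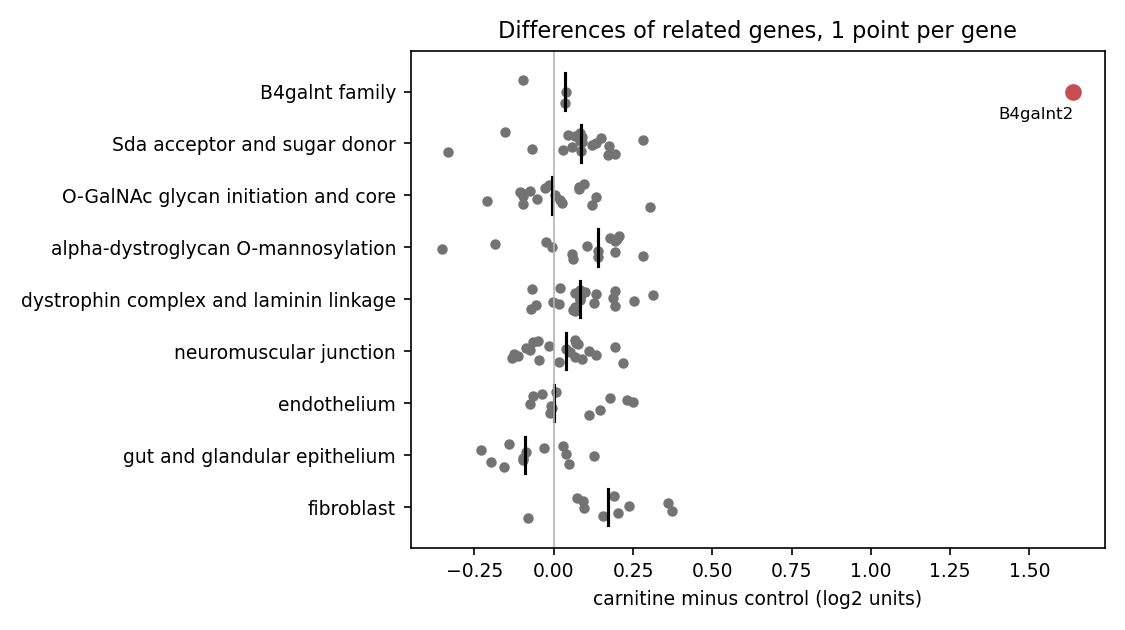
Carnitine minus control in log2 units, 1 point per gene and 1 row per gene list, with the median of each list as a black bar and B4galnt2 in red at 1.64. The members shown besides B4galnt2 lie between -0.35 and 0.37; the denervation, slow-fibre, fast-fibre, skeletal muscle, Schwann cell, macrophage, adipocyte and satellite cell lists are not drawn, and some of their members lie outside this range, down to -1.64 in Myh7.

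Relations between B4galnt2 and other genes were measured over the 10 mice as Pearson's r after subtraction of each diet mean, so that the diet difference itself adds nothing. The mice share a platform and scaling but not a stated batch, and each r is a description. Of all genes, 63 (0.284%) had r of 0.8 or more and 52 (0.234%) had -0.8 or less, and the median r was 0.004. The named genes were taken among those whose mean reached the median probe set.

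Ttll1, a subunit of the tubulin polyglutamylase complex, was the most alike (r = 0.975, Spearman's rho = 0.942). Its levels were 7.46, 8.03, 7.61, 7.55 and 7.75 in controls 1 to 5 and 7.75, 7.81, 8.03, 7.75 and 7.71 in carnitine 1 to 5. In both genes control 2 was the highest control and carnitine 3 the highest carnitine mouse. Ttll1 averaged 7.68 ± 0.22 and 7.81 ± 0.13, and its diet groups overlapped. H2-Ab1, the beta chain of an MHC class II molecule, followed (r = 0.949, rho = 0.939), with 6.54, 7.25, 6.64, 6.79 and 6.95 in controls and 6.97, 6.96, 7.09, 6.95 and 6.83 in carnitine mice. Here too control 2 and carnitine 3 led their diets, and control 2 was the highest of all. Without these 2 mice r was 0.870 for Ttll1 and 0.928 for H2-Ab1, over 8 mice.

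The next were Mettl8, an RNA methyltransferase (r = 0.910), the zinc finger gene Zfp84 (0.895), Sgpp1, a phosphatase of sphingosine phosphate (0.888), the constitutive chaperone Hspa8 (0.886), the collagen-binding receptor Antxr1 (0.885) and Entpd1, an enzyme that breaks down extracellular ATP (0.884). Of these 8 genes, 1 had an unadjusted p under 0.05 for diet, beside 6.97% of all genes: Zfp84 (8.08 ± 0.25 and 8.33 ± 0.10). In 8 of the 8 genes control 2 was the highest control, as in B4galnt2, an order that the choice by r favours. Of the 16 genes named by this measure, high and low together, 4 kept r of at least 0.8 in size without control 2: Ttll1 (0.943), Mettl8 (0.870), H2-Ab1 (0.859) and Hspa8 (0.858). Of these 4, Mettl8 and H2-Ab1 were also at 0.8 or more under median centring, cyclic loess and quantile normalisation.

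On the opposite side were Prorsd1 (r = -0.922), Gramd1c, of a family that moves cholesterol between membranes (-0.909), the beta-arrestin Arrb2 (-0.899), the homeobox gene Six5 (-0.854), the neuronal calcium sensor Hpca (-0.852), Tincr (-0.850), the ESCRT subunit Chmp6 (-0.845) and Zfp777 (-0.838). Control 2 was the lowest control in 8 of the 8, which the choice by r also favours. Without control 2 their r lay between -0.417 and -0.767, so the strength of these relations rested on that mouse. Six5 held best without both extreme mice (-0.798), and Prorsd1 went to -0.368.

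Over the uncentred levels 123 genes (0.555%) had r of 0.8 or more and 104 (0.469%) had -0.8 or less. Here, where the diet difference and the variation between mice add up, the most alike gene was Naa60, an N-terminal acetyltransferase of the Golgi (r = 0.959, rho = 0.790, and r = 0.963 without controls 1 and 3, the farthest in uncentred level). Naa60 levels were 7.76, 8.02, 7.68, 7.72 and 7.72 in controls and 8.04, 8.11, 8.24, 8.01 and 8.06 in carnitine mice. As in B4galnt2, control 2 lay at the foot of the carnitine range and the other 4 controls well below it. After subtraction of the diet means r of Naa60 was 0.864, and -0.210 without control 2 and carnitine 3. Vim, the intermediate filament of mesenchymal cells, had 9.59, 10.19, 9.64, 9.77 and 9.97 in controls and 10.24, 10.15, 10.26, 10.10 and 10.22 in carnitine mice (r = 0.929, rho = 0.806, and 0.884 without controls 1 and 3). Tmem9b (0.927), Gramd3 (0.924), the ubiquitin ligase gene Rnf139 (0.921), the neddylation factor Dcun1d2 (0.921), the small GTPase Rhoa (0.915) and Smco1 (0.915) came next. With the diet means subtracted and control 2 and carnitine 3 left out, r of these 8 genes ran from -0.534 in Rnf139 to 0.654 in Dcun1d2.

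In 8 of these 8 genes control 2 was the highest control and carnitine 3 the highest carnitine mouse, tied with carnitine 5 in Smco1, and in 5 of them control 2 reached the carnitine range. In the other 3, Rnf139, Rhoa and Smco1, the diets did not overlap. Choice by r favours genes led by the same mice as B4galnt2, so this order follows in part from the selection. B4galnt2 levels fell into a low and a high cluster of mice, so an uncentred r includes the step between these clusters. Opposite patterns were found in the signalling adaptor Lat2 (r = -0.908), the calpain inhibitor Cast (-0.893), the RNA-editing enzyme Adarb1 (-0.888) and Begain (-0.886). In 4 of these 4 control 2 was the lowest control, which the choice by r favours too. With the diet means subtracted and control 2 and carnitine 3 left out, their r ran from -0.141 in Cast to 0.264 in Lat2.

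**Figure D4:**
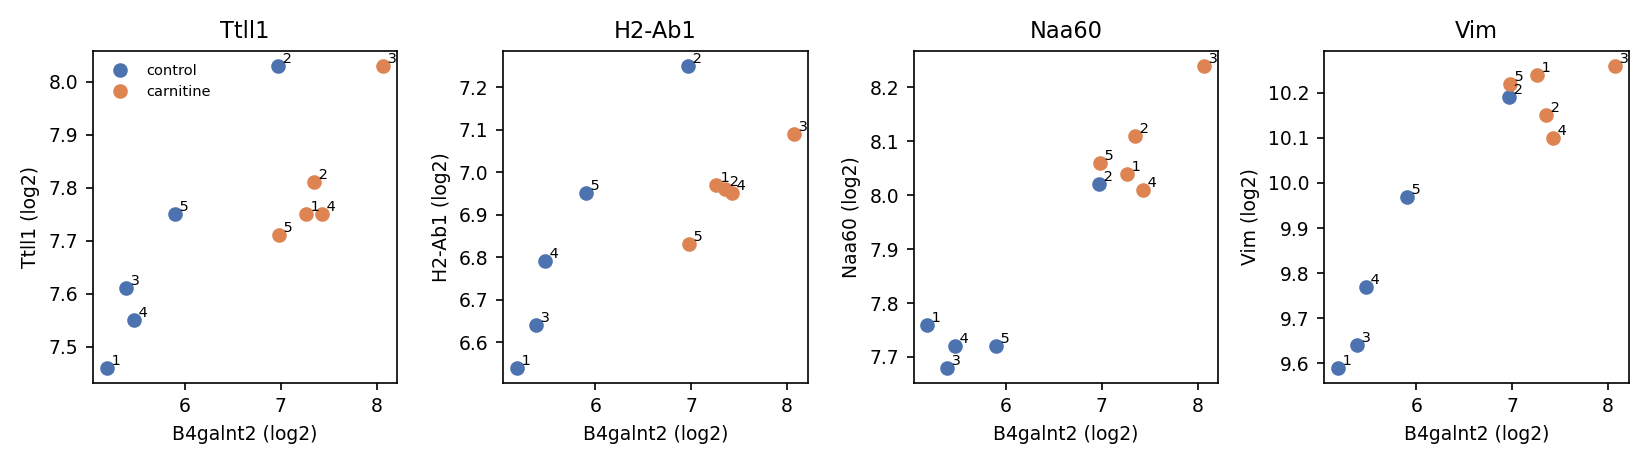
Log2 level of 4 genes (vertical axes) against the log2 level of B4galnt2 (horizontal axes), 1 point per mouse labelled with its replicate number and coloured by diet. Ttll1 and H2-Ab1 follow B4galnt2 within each diet, with r = 0.975 and 0.949 after subtraction of the diet means, while Naa60 and Vim separate the 4 low controls from the other mice.

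Among 17 gene lists, the mean level of the fibroblast markers followed B4galnt2 most closely within diets (r = 0.608, rho = 0.612, and 0.514 without control 2 and carnitine 3), ahead of the adipocyte markers (0.485) and the macrophage markers (0.428). Without those 2 mice the macrophage markers had 0.877, more than the fibroblast markers, so the order of the lists rested on them. The correlations of the 10 fibroblast markers were all positive, from 0.316 to 0.762, the last in the matrix gene Mfap5, and the fibroblast receptor Pdgfra had 0.658. The list's mean level was 7.39 to 8.08 in controls and 7.68 to 8.21 in carnitine mice, and 9 of 10 markers had a positive difference beside 47.7% of all genes. On the higher side 0 had an unadjusted p under 0.05, against 3 without control 2 and 1 without control 5. Over all 22180 genes that count was 696 (3.14%), 1280 without control 2 and 568 without control 5. Decorin Dcn and lumican Lum, matrix proteoglycans, differed by 0.36 (SE 0.21) and 0.37 (SE 0.23). In RNA of whole muscle, a change in the number of cells of a type and one in RNA per cell cannot be told apart, and the part of fibroblasts in the level of B4galnt2 was not tested.

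Markers of the cell types that express B4galnt2 elsewhere overlapped between the diets. The mean level of 12 endothelial markers was 7.47 to 8.13 in controls and 7.77 to 8.16 in carnitine mice (r = 0.106 within diets, and -0.561 without control 2 and carnitine 3), with 6 positive and 6 negative differences. Cdh5 and Pecam1, junction proteins of vessels, differed by 0.01 and -0.004, and the von Willebrand factor gene Vwf averaged 6.89 ± 0.27 and 7.00 ± 0.11. The 12 markers of gut and glandular epithelium had levels of 5.79 to 6.20 in controls and 5.82 to 6.04 in carnitine mice, and 6 of them lay below the median probe set. Epcam, Vil1 and Cdh1 differed by -0.09, -0.16 and -0.14, and the list had 4 positive and 8 negative differences. The r of the list's mean level within diets was -0.330, and 0.777 without control 2 and carnitine 3, so its sign rested on these mice. Control 2 had the lowest epithelial level of the 5 controls and the second highest endothelial one. The part of these cells in the level of B4galnt2 was not tested.

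Slow-fibre genes, 9 of 15 with an unadjusted p under 0.05 on the lower side beside 3.83% of all genes, had a mean level whose r with B4galnt2 was 0.123 after subtraction of the diet means. Leaving out 1 mouse gave from 2 such genes, without carnitine 2 or 5, to 11, without carnitine 3 or 4. Slow myosin Myh7 and the stretch-responsive Ankrd2 differed by -1.64 (SE 0.67) and -1.33 (SE 0.43), and their r with B4galnt2 after subtraction of the diet means was 0.194 and 0.022. These pooled values join opposite signs: over the 5 mice of each diet alone, r was -0.843 in control and 0.752 in carnitine mice for Myh7, and -0.555 and 0.726 for Ankrd2. With 5 mice such an r is imprecise, and the difference between the diets was not tested.

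Genes that lie next to B4galnt2 on chromosome 11, in the RefSeq order of GRCm38.p6, were taken as the 4 nearest measured on each side. The gene 4833417C18Rik averaged 6.18 ± 0.14 in control and 6.00 ± 0.09 in carnitine mice. Gngt2, a G protein gamma subunit, and Abi3 differed by -0.11 (SE 0.11) and -0.01 (SE 0.09), and the zinc finger gene Zfp652 by 0.11 (SE 0.15). On the other side the incretin gene Gip and the ESCRT gene Snf8 differed by -0.19 (SE 0.16) and -0.05 (SE 0.11), and the ATP synthase subunit gene Atp5g1 by 0.08 (SE 0.13). Ube2z, a ubiquitin-conjugating enzyme, was the 1 of the 8 with an unadjusted p under 0.05, beside 6.97% of all genes. Its means were 8.42 ± 0.12 and 8.62 ± 0.10 (difference 0.20, SE 0.09, limma adjusted p = 0.71).

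Ube2z levels were 8.46, 8.61, 8.36, 8.30 and 8.35 in controls and 8.65, 8.63, 8.70, 8.66 and 8.45 in carnitine mice. Control 2 was again the highest control and carnitine 3 the highest carnitine mouse, and r with B4galnt2 was 0.732 within diets. It was 0.163 without these 2 mice. The other neighbours had r from -0.353 to 0.339, and from -0.566 to 0.779 without these 2 mice. Gip went from 0.009 to 0.779, Gngt2 from -0.237 to 0.511 and Atp5g1 from 0.339 to -0.566.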

How the data were processed

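The deposited values are log2 expression per probe set, made by the authors with RMA in Affymetrix Expression Console per the submitters' processing notes; neither versions nor a genome build is stated there. RMA corrects background, scales arrays to a shared distribution and summarises probes, so differences in total RNA cannot be seen and dim signals are compressed. The deposited arrays were still not identical in distribution, with medians of 5.72 to 5.96 and interquartile ranges of 2.20 to 2.59. Gene names came from GEO's platform table: of 34390 probe sets, 23521 have 1 symbol, 1814 several, and 9055 are unnamed here. Only those with 1 symbol were used, the brightest by mean per gene, which left 22180 genes. Carnitine was compared with control in limma 3.58.1 under R 4.3.3 (lmFit, eBayes with a mean-variance trend, two-sided, Benjamini-Hochberg over all genes); the fit was tested on simulated data. Precision is limited by the 10 arrays.

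B4galnt2 and the 17 gene lists were chosen with earlier results of these data known. Named genes are B4galnt2 and its family, 4 neighbours per side, per list the 4 members with the smallest unadjusted p (junction and marker genes freely), and the 8 highest and 8 lowest r after subtraction of diet means and the 8 highest and 4 lowest uncentred, passing over predicted genes. Dag1, Utrn, Myh7 and the MHC class II genes named besides H2-Ab1 fall outside this rule and were chosen after values were seen. Alternatives were other scalings, array weights, a replicate block, variance and dim-gene settings, Spearman's rho, and omission of mice, of which controls 2 and 5 together was chosen after seeing the data. Upstream sequence is from RefSeq (GRCm38.p6).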

Additional observations from a re-analysis of the deposited data

Results flagged for a closer look

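A mouse was singled out where its distance to the nearest mouse of its diet exceeded 0.71 of that diet's range, a rule that chance meets in about 1 of 20 groups. Over 96 named genes and 192 groups it was met 11 times. B4galnt2 did not meet it: the share was 0.598 for control 2 and 0.587 for carnitine 3. Control 2 met it in 3 genes chosen for their high or low r with B4galnt2, with 7.38 in Prorsd1, 6.05 in Arrb2 and 8.02 in Naa60, where the nearest control had 7.55, 6.37 and 7.76. Among the junction genes, carnitine 1 was lowest in Chrna1 (7.10), carnitine 5 highest in Musk (9.35) and control 3 highest in Chrne (8.31). Carnitine 5 was also lowest in Ube2z (8.45) and in Cdh5 (9.53). Carnitine 2 was lowest in Smco1 (9.78) and highest in Myh4 (13.71), and control 4 was highest in Abi3 (7.01).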

How the results depend on the processing

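The B4galnt2 difference of 1.64 was 1.67 after median centring, 1.63 after cyclic loess, 1.65 after quantile normalisation, 1.71 with array weights and 1.88 between medians. Leaving out 1 mouse gave 1.48 to 1.94, and leaving out control 2 and control 5 together, chosen after seeing the data, gave 2.07. With the replicate number as a block the difference stayed 1.64 and 0 genes passed the adjusted threshold in limma. The unadjusted counts under the replicate block were 853 higher and 949 lower. Same-numbered mice of the 2 diets had correlated deviations of -0.132 to 0.236, and 2 of 5 controls correlated best with their own number, so the numbers are not taken as pairs. The count of genes past the adjusted threshold was 0 to 1 on leaving out a mouse, with 1 without control 2 and 1 without controls 2 and 5 together; that gene is B4galnt2, which was chosen for this difference, so the count is no evidence for it. Of the 16 genes with the strongest relation to B4galnt2, 10 had r of at least 0.8 in size after median centring, 9 after cyclic loess, 7 after quantile normalisation, 7 by Spearman's rho, 5 without subtraction of the diet means, 3 without the 2 extreme mice and 4 to 16 when 1 mouse was left out. The low count of 4 came without control 2. The genes were picked for a high r, so some loss under any other setting follows from the choice. For 67 other named genes and 1198 recomputed differences, 0 reversed among those with an unadjusted p under 0.05, 44 lost that p and 33 gained it. Among the 67, only Large2, Dpm1, Dolk, B3galnt2, Lama4, Chrng, Myh7, Ankrd2 and Ube2z had that p at the outset. The 44 are therefore to be read against the recomputed values of these genes, not against all 1198. The mean of several probe sets was not run, since 1 probe set names B4galnt2. B4galnt2 in most controls lies among dim probe sets, where the size of the fold is limited by signal over background.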

Other observations

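H2-Ab1 was the only MHC class II gene named by its relation to B4galnt2. H2-Aa, H2-Eb1, H2-DMa and H2-DMb1, a part of the class II genes, were read after its value had been seen. H2-Aa, which encodes the alpha chain of the same molecule, had r = 0.533 with B4galnt2 within diets, with 6.27 ± 0.31 in control and 6.20 ± 0.14 in carnitine mice (SD, n = 5 each). H2-Eb1 (r = -0.307), H2-DMa (-0.120) and H2-DMb1 (-0.399), the last 2 from the loading of class II molecules with peptide, had negative values over the 10 mice. Without control 2 and carnitine 3 r was 0.676 for H2-Aa, -0.021 for H2-Eb1, 0.554 for H2-DMa and 0.391 for H2-DMb1, so the sign of the last 2 rested on those mice. Spearman's rho of H2-DMa over the 10 mice was 0.164. Control 2 had the highest level of all 10 mice in H2-Ab1 (7.25) and in H2-Aa (6.62), and the lowest in H2-DMb1 (3.73). H2-DMb1 was dim, with means of 3.97 in control and 4.01 in carnitine mice, below the median probe set (5.80).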
